A study of Mus musculus with 8 samples.

Results

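Mature miRNAs mmu-miR-221, mmu-miR-222 and mmu-miR-31 were followed in mouse kidneys with and without ureteral obstruction. They are 3 of the 611 mouse miRNAs on the array. All 3 were among the 222 miRNAs tested, namely those that every kidney of the contralateral or of the obstructed group showed above background. They were selected by name, as miRNAs linked to proliferation and tissue injury, by a choice made with the obstructed against contralateral values of these arrays known. Their differences between the groups are therefore given as a description, without a test.

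The mice were of the outbred ICR strain, with no genetic modification named in the labels. In each mouse 1 ureter was tied off for 7 days, which blocks the outflow of urine from that kidney. The obstructed group (labelled UUO kidney, for unilateral ureteral obstruction) held 4 obstructed kidneys, and the contralateral group (labelled control kidney) held 4 kidneys of the open side, so the controls also came from operated animals and were not sham kidneys. Age and sex were not given in the sources used here. Each kidney had an array of its own, labelled from 100 ng of total RNA.

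MicroRNAs silence messenger RNAs by pairing through their seed, here bases 2 to 8. miR-221 and miR-222 come from neighbouring hairpins, are known to repress the cell cycle inhibitor p27 (Cdkn1b) and the receptor Kit, and are well described in endothelium, in smooth muscle and in dividing tumour cells. miR-31 has a seed of its own, is abundant in stratified epithelium, and is known to be induced in inflamed epithelium such as psoriatic skin.

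The mature sequences, from RefSeq on GRCm38.p6, show which of the 3 can share targets. The seed is in capitals, and the array's older names were matched to the present arm names, all 4 of them with an entry.

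miR-221 (miR-221-3p): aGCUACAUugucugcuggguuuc

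miR-222 (miR-222-3p): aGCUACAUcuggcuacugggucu

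miR-31 (miR-31-5p): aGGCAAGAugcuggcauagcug

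miR-31* (miR-31-3p): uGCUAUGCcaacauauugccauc

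miR-221 and miR-222 have the first 8 bases in common and are the same at 11 of 23 positions when aligned from base 1 without gaps. Their seed was shared by 3 of the 1679 mature mouse miRNAs in the RefSeq table, the other being miR-1928, which was not analysed here. The seed of miR-31 and that of miR-31*, the less abundant strand of the same hairpin, were each found once. The miR-221 hairpin lies at chrX:19146294-19146388 and the miR-222 hairpin at chrX:19146893-19146971, both on the minus strand and 504 bases apart (GRCm38.p6), with no other annotated gene spanning either. The miR-31 hairpin lies at chr4:88910557-88910662 on the minus strand, within the span of the long noncoding RNA gene Gm49890. It is shown because both of its strands were on the array (capitals):

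Mir31 hairpin: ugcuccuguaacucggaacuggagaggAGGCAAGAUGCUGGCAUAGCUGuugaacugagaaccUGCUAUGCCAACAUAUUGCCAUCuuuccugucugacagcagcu

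The array signal as a whole differed between the groups. The 75th percentile of probes well above background on all arrays was 417 to 582 on contralateral arrays and 514 to 1595 on obstructed arrays, and every level below is a multiple of that percentile on the same array, unless said otherwise. The level is the sum over the 2 probes of a miRNA, and differences are on the log2 scale, obstructed minus contralateral, with the standard error of limma's fit. Of 6 miRNAs that mark kidney tubules, 5 were among those tested, miR-192 and miR-194 included, and miR-215 was above background on no array. Obstructed kidney 2 lay close to the contralateral arrays over much of the array, so values without it stand beside those of all 8 arrays. It was singled out by these same values. More calls and larger differences without it therefore follow in part from that choice and support nothing.

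The 3 miRNAs did not go one way. With the main scaling, miR-221 was lower on every obstructed array, by about the same amount in each. miR-222 was lower on 3 obstructed arrays and not on the array of kidney 4. miR-31 was higher on 3 obstructed arrays and not on the array of kidney 2. These directions are those of scaled levels. Without scaling all 3 had a higher mean in obstructed kidneys, and with a normexp background correction the mean of all 3 was lower there, as detailed for each.

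**Figure D1:**
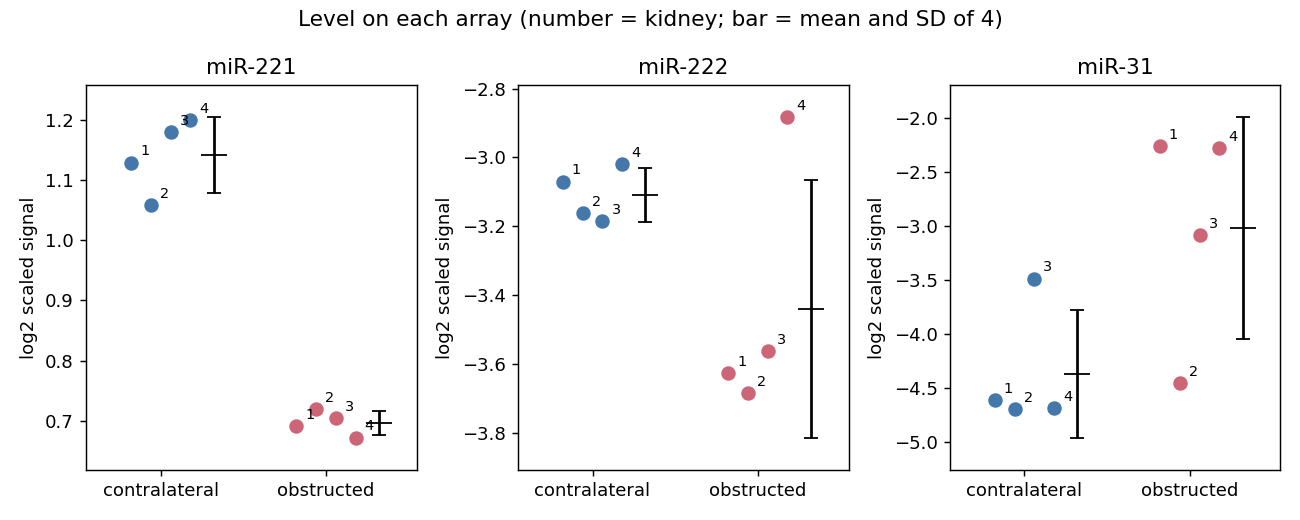
The log2 scaled signal (y axis) of miR-221, miR-222 and miR-31 on each array (points numbered by kidney), with the mean and SD of the 4 arrays of a group beside them. The groups are apart for miR-221, while obstructed kidney 4 for miR-222 and obstructed kidney 2 for miR-31 lie among or near the contralateral kidneys.

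miR-221 had scaled levels of 2.19, 2.08, 2.26 and 2.30 in contralateral kidneys 1 to 4. In obstructed kidneys 1 to 4 the scaled levels were 1.62, 1.65, 1.63 and 1.59. The 2 groups did not overlap, and the obstructed kidneys, kidney 2 included, lay within 0.047 of each other on the log2 scale. The mean log2 level was 1.14 ± 0.063 in contralateral and 0.70 ± 0.020 in obstructed kidneys (SD, n = 4 each). The log2 difference was -0.44 ± 0.11 (SE, n = 4 each). This is 1.36-fold lower, and without obstructed kidney 2 the difference was -0.45 ± 0.091. Within slide row 1, which held kidneys 1 and 2 of both groups, it was -0.39, and within slide row 2, with kidneys 3 and 4, it was -0.50.

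The direction for miR-221 rests on the scaling, and so does its small spread. With the 75th percentile taken over all mouse probes, the log2 difference was -0.46 ± 0.28 (SE, n = 4 each). Before scaling the summed probe signal of miR-221 was 1122, 869, 1251 and 1338 on contralateral arrays and 1113, 847, 2286 and 2541 on obstructed arrays. Unscaled, obstructed kidneys 1 and 2 were thus within the contralateral range and kidneys 3 and 4 above it, and the log2 difference turned to 0.44. Without scaling the median difference of all tested miRNAs moved by 0.88, from -0.14 to 0.74, and miR-221 stood at -0.30 against it in both cases. That equality is fixed by the arithmetic, since scaling shifts the log2 levels of an array by the same amount. With normexp, a background correction that adds an offset, miR-221 was at -0.41, but the median of all tested miRNAs moved by -0.48 and miR-221 lay 0.21 above it.

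miR-222 had scaled levels of 0.119, 0.112, 0.110 and 0.123 in contralateral kidneys 1 to 4. In obstructed kidneys 1 to 3 they were 0.0810, 0.0778 and 0.0847, and in obstructed kidney 4 the level was 0.136. Obstructed kidneys 1 to 3 lay below all contralateral kidneys and obstructed kidney 4 above all of them, so the groups overlapped. The mean log2 level was -3.11 ± 0.078 in contralateral and -3.44 ± 0.37 in obstructed kidneys (SD, n = 4 each). The log2 difference was -0.33 ± 0.20 (SE, n = 4 each), -0.25 ± 0.19 without obstructed kidney 2 and -0.52 without obstructed kidney 4, which moved it by more than 1.5 times. Without scaling it was 0.55, which put it at -0.19 against the median of the tested miRNAs. The value with scaling was the same, again by the arithmetic. Within slide row 1 it was -0.54 and within slide row 2, which held obstructed kidney 4, it was -0.12.

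miR-31 had scaled levels of 0.0410, 0.0387, 0.0891 and 0.0388 in contralateral kidneys 1 to 4. In obstructed kidneys 1 to 4 they were 0.208, 0.0457, 0.118 and 0.206. Obstructed kidneys 1, 3 and 4 lay above all contralateral kidneys, obstructed kidney 2 lay just above contralateral kidneys 1, 2 and 4, and contralateral kidney 3 stood above the other contralateral kidneys. The level spread 4.55-fold over the obstructed kidneys and 2.30-fold over the contralateral kidneys. The mean log2 level was -4.37 ± 0.59 in contralateral and -3.02 ± 1.03 in obstructed kidneys (SD, n = 4 each). The log2 difference was 1.35 ± 0.52 (SE, n = 4 each), a level 2.54-fold higher, and 1.82 ± 0.36 or 3.54-fold without obstructed kidney 2.

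The values of miR-31 were near the lower end of what the array measured. Before scaling, its summed probe signal was 21.0, 16.2, 49.2 and 22.6 on contralateral arrays and 143, 23.5, 165 and 328 on obstructed arrays, which left the same 3 obstructed kidneys above all contralateral ones. The scanner software's own summed signal with its error was 10.2 ± 1.85, 8.26 ± 1.64, 32.3 ± 3.26 and 11.1 ± 2.00 on contralateral arrays. On obstructed arrays it was 92.8 ± 7.46, 11.3 ± 1.89, 105 ± 8.36 and 209 ± 16.2. Unscaled, the log2 difference was 2.23. With normexp, whose offset of 50 exceeded every contralateral probe signal of miR-31, it turned to -0.40, or 0.22 above the median of all tested miRNAs. The difference was 1.29 within slide row 1 and 1.40 within slide row 2.

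miR-31* was the only other strand of the 3 hairpins on the array. None of its 2 probes was above background on a contralateral array or on that of obstructed kidney 2. Probe A_54_P3475 was above background in obstructed kidneys 1, 3 and 4, with 80%, 70% and 100% of its spots marked so, and probe A_54_P3474 on no array. The mean spot signal of A_54_P3475 was 1.52, 3.00, 5.20 and 2.32 in contralateral kidneys and 15.0, 2.80, 14.3 and 27.8 in obstructed kidneys, before scaling. The contralateral values, none above background, have no order. The 3 obstructed kidneys with signal were those in which miR-31 was high. These were also the arrays with the brighter overall signal among the obstructed kidneys, and its part in the detection was not tested. With the level at or near the floor after scaling, no fold is given, and miR-31* was not among the miRNAs tested.

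Each miRNA was read by 2 probes with 10 spots each. For miR-221 they gave differences of -0.51 (A_54_P2640) and -0.41 (A_54_P3830), and the median coefficient of variation between spots was 6.19% and 5.34%. All obstructed kidneys lay below all contralateral ones with both. For miR-222 the probes gave -0.13 (A_54_P2643) and -0.48 (A_54_P2644). Without obstructed kidney 2 the first turned to 0.056 and the second was at -0.47. They disagreed on obstructed kidney 1, which was at -0.0051 with the first and -0.92 with the second, relative to the contralateral mean of the probe. Both put obstructed kidney 4 highest among the 8 arrays, at 0.33 and 0.17. Their median variation between spots was 11.7% and 17.5%, at mean spot signals of 13.6 to 132.

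For miR-31, probe A_54_P1322 was above background on all 8 arrays and gave 1.29, or 1.75 without obstructed kidney 2. Probe A_54_P1323 gave 0.84, a value limited by 4 arrays at the floor, those of contralateral kidneys 1, 2 and 4 and obstructed kidney 2. It was above background in contralateral kidney 3 and in obstructed kidneys 1, 3 and 4. Both probes of miR-31 thus put contralateral kidney 3 apart from the other contralateral kidneys.

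**Figure D2:**
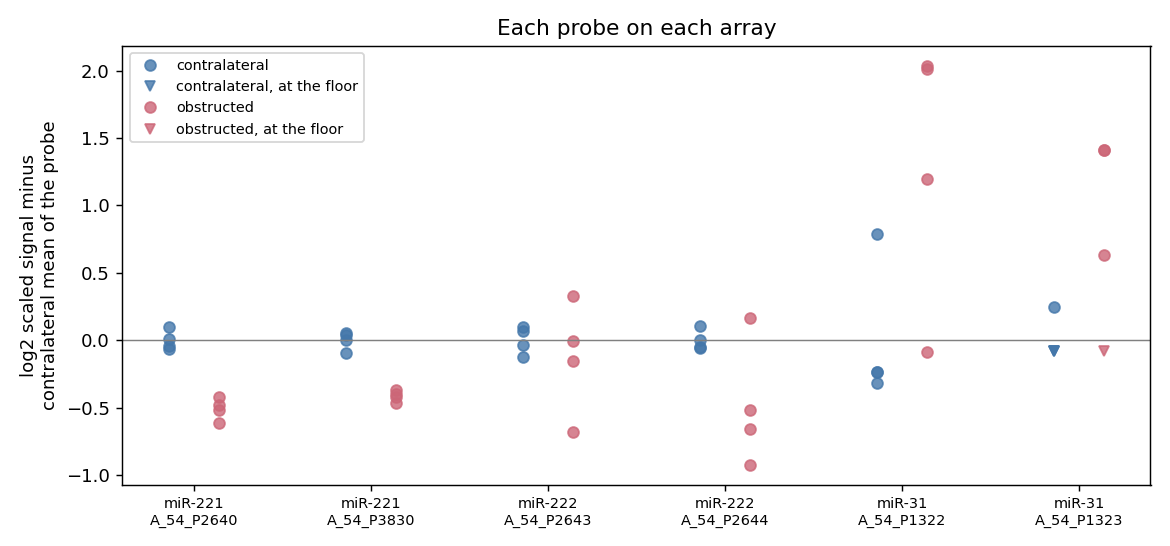
Each of the 6 probes of miR-221, miR-222 and miR-31 (x axis), with its log2 scaled signal on each array minus the probe's contralateral mean (y axis); triangles are arrays at the floor. Both miR-221 probes separate the groups, the miR-222 probes spread over the obstructed arrays, and A_54_P1323 of miR-31 is at the floor on 4 arrays.

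Of the 3 miRNAs, 1 was called in the comparison of all 8 arrays (limma, Benjamini-Hochberg adjusted p under 0.05), miR-221, as lower, beside 14.9% of the 222 tested miRNAs. The same 1 of 3 had groups that did not overlap, beside 23% of those tested. Without obstructed kidney 2, 2 of 3 were called, miR-221 as lower and miR-31 as higher, beside 50.9% of those tested, and the groups of the same 2 did not overlap, beside 56.3%. The choice of the 3 was made with this comparison known, so nothing is read from these counts. Fits without contralateral kidney 1, 3 or 4 or obstructed kidney 1 or 3 called no miRNA (limma, 54 to 67 at an unadjusted p under 0.05), and those without contralateral kidney 2 or obstructed kidney 4 called neither miR-221 nor miR-31. In the order of differences from the highest, miR-31 was at place 10 of 222, miR-222 at 145 and miR-221 at 160.

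**Figure D3:**
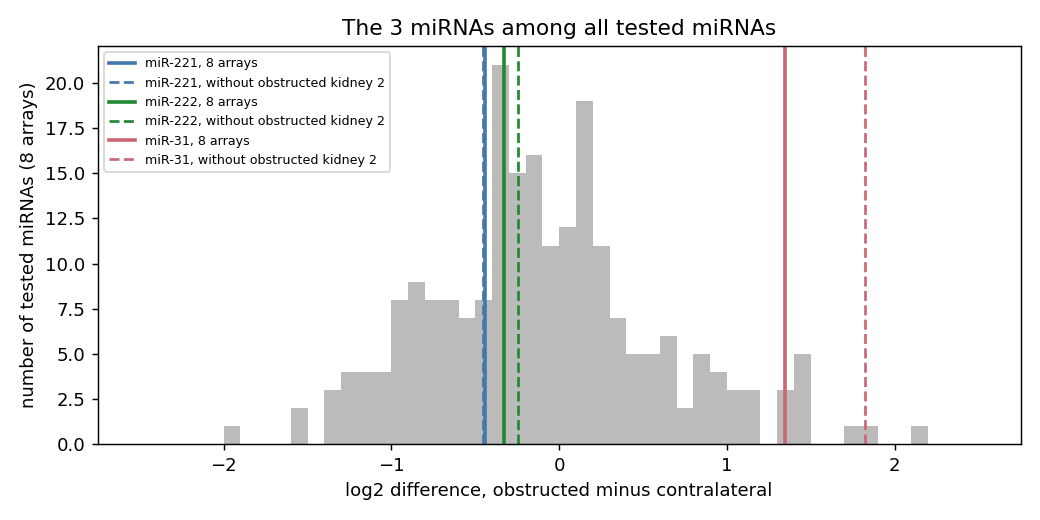
Histogram of the log2 difference, obstructed minus contralateral, of the 222 tested miRNAs on 8 arrays (log2 units on the x axis, number of miRNAs on the y axis), with solid lines for miR-221, miR-222 and miR-31 and dashed lines for the same without obstructed kidney 2. miR-31 lies in the upper tail at 1.35, moving to 1.82, and miR-221 and miR-222 lie within the bulk at -0.44 and -0.33.

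A ratio of 2 miRNAs on the same array does not depend on scaling by a constant. The log2 ratio of miR-221 to miR-222, set to 0 at the contralateral mean, was -0.052, -0.030, 0.11 and -0.032 in contralateral kidneys and 0.067, 0.15, 0.015 and -0.70 in obstructed kidneys. The ratio thus lay between -0.052 and 0.15 in 7 kidneys, and miR-222 was high against miR-221 in obstructed kidney 4. The differences of the 2 miRNAs were -0.12 ± 0.20 apart (SE, n = 4 each). The standard errors of these ratios come from their variance within each group and not from limma's fit. The log2 ratio of miR-31 to miR-221 was 2.55, 0.34, 1.72 and 2.56 in obstructed kidneys and -0.23, -0.24, 0.84 and -0.38 in contralateral kidneys. It was above 0 in all 4 obstructed kidneys, with obstructed kidney 2 below contralateral kidney 3. The differences of miR-31 and miR-221 were 1.79 ± 0.59 apart (SE, n = 4 each), and 2.28 without obstructed kidney 2.

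The miRNAs whose log2 levels most resembled each member over the 8 arrays differed between the 3 members. The correlations are descriptions over 8 arrays in 2 groups that share a scaling, so a difference between the groups enters them. The 3 nearest miRNAs were chosen on these same arrays, so a pattern they share with the member follows from the choice and supports nothing. For miR-221 they were miR-582-5p (r = 0.98), the tubule miRNA miR-194 (r = 0.98) and miR-26a (r = 0.97). All 3 were lower on every obstructed array than on every contralateral array, with differences of -0.77 ± 0.13 for miR-582-5p, -1.31 ± 0.18 for miR-194 and -0.38 ± 0.11 for miR-26a (SE, n = 4 each). miR-222 itself came at place 83 for miR-221, with r = 0.54. Without scaling, miR-582-5p was at 0.11, miR-26a at 0.50 and miR-194 at -0.43.

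For miR-31 the most alike were miR-21 (r = 0.96), widely described in kidney fibrosis, miR-214 (r = 0.96), made from a transcript of mesenchymal cells, and let-7i (r = 0.96). In obstructed kidney 2 they were at -0.56, -0.094 and -0.27 relative to the contralateral mean, beside -0.083 for miR-31. In obstructed kidneys 1, 3 and 4 miR-21 was at 1.49, 1.11 and 1.19, beside 2.10, 1.28 and 2.09 for miR-31. In contralateral kidney 3 the values were 0.65 for miR-21, 0.28 for miR-214 and 0.28 for let-7i, beside 0.88 for miR-31.

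For miR-222 the most alike were miR-27b (r = 0.83), the endothelial miR-126-3p (r = 0.83) and miR-140* (r = 0.79). In obstructed kidney 4, where miR-222 was high, they were at -0.00092, -0.046 and -0.22 relative to the contralateral mean.

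**Figure D4:**
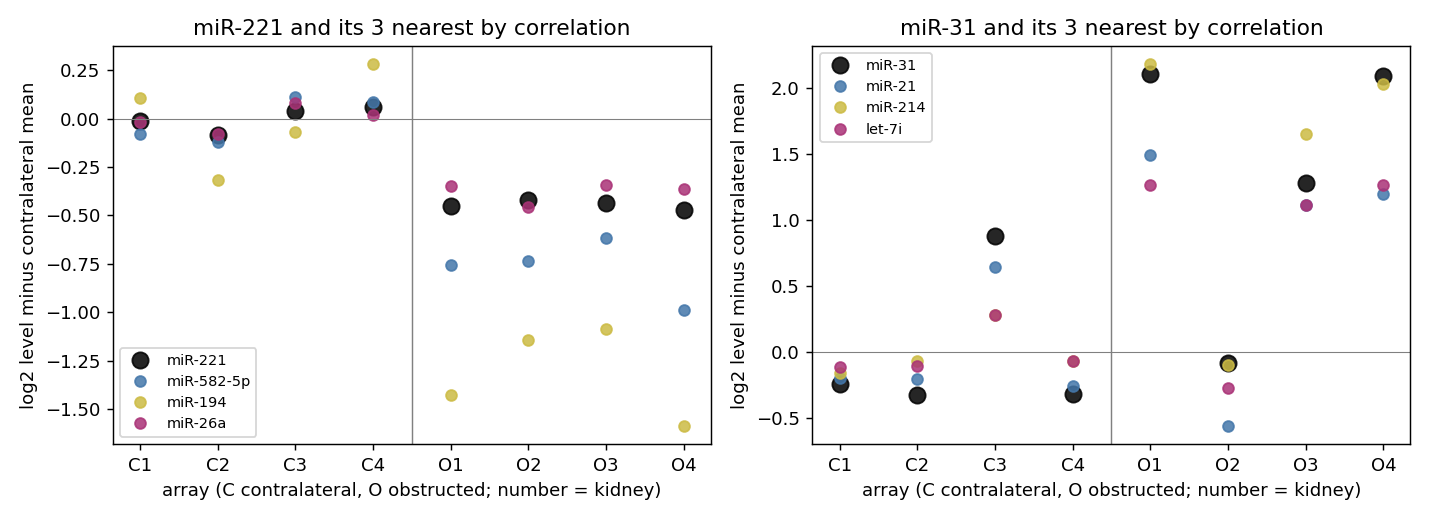
The log2 level minus the contralateral mean (y axis) on the 8 arrays (x axis, C contralateral and O obstructed, numbered by kidney) for miR-221 and miR-31, each with the 3 tested miRNAs most correlated with it. miR-221 and its neighbours are below 0 in all 4 obstructed kidneys, and miR-31 and its neighbours are above 1 in obstructed kidneys 1, 3 and 4 but not in kidney 2.

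Other miRNAs linked to proliferation and injury were taken as a list of 16, of which 15 were tested. On 8 arrays 0 of 15 were called higher and 0 lower (limma, 2 at an unadjusted p under 0.05), beside 1.35% of all tested miRNAs called higher. The median difference of the 15 was 0.57, against -0.14 for all tested miRNAs, and all 15 lay above 0. With normexp 13 of the 15 did. Of all 222 tested miRNAs, those above 0 took places 1 to 93 in the order of differences. The list was chosen with earlier results of these data known, so nothing is read from its direction. Without obstructed kidney 2, 12 of 15 rose and none fell (limma adjusted p under 0.05), beside 20.7% of all tested miRNAs called higher, and the median was 0.82. miR-221 and miR-222 lay on the other side of 0 from all 15 with the main scaling, and miR-31 on the same side. Of the list, 2 members also stand among the leukocyte markers below, miR-146a and miR-155, and miR-21 and miR-214 are those most like miR-31 above. The members with the most signal were miR-21 at 0.81 ± 0.46, miR-27a at 0.30 ± 0.17, miR-92a at 0.37 ± 0.23 and miR-19b at 0.20 ± 0.26 (SE, n = 4 each), none of them called.

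Leukocyte markers, as a sum, were high on the obstructed arrays on which miR-31 was high. Of the marker lists, only that of leukocytes had a sum above the contralateral range on each of these arrays. The list of 16 injury-linked miRNAs, not a marker list, had such a sum too. It was 127, 99.3 and 108 in obstructed kidneys 1, 3 and 4 and 36.3 in obstructed kidney 2. In contralateral kidneys it was 42.6 to 72.8, with kidney 3 the highest. In whole tissue, a change in the number of cells of a type and a change in the RNA of each cell cannot be told apart. No member of the leukocyte list was below background throughout. The summed level of its 7 miRNAs, among them miR-223 and miR-146a, was 1.98 to 2.71 in contralateral kidneys, 1.88 in obstructed kidney 2, and 7.69, 7.40 and 6.84 in obstructed kidneys 1, 3 and 4. Of the 5 tested, 0 were called on 8 arrays (limma, 3 at an unadjusted p under 0.05), beside 1.35% of all tested miRNAs called higher. Without obstructed kidney 2, the obstructed array with the low leukocyte sum, 5 of 5 rose (limma adjusted p under 0.05), beside 20.7% of all tested miRNAs. Contralateral kidney 3, the contralateral kidney with the most miR-31, had the lowest leukocyte sum of that group, 1.98. The part of leukocytes in the level of miR-31 was not tested.

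Tubule and endothelial markers were set beside miR-221 and miR-222. The summed level of 6 tubule miRNAs was 28.5 to 32.9 in contralateral and 17.7 to 22.5 in obstructed kidneys, kidney 2 at 22.5, and 2 of 5 tested members fell (miR-192 and miR-194, limma adjusted p under 0.05), beside 13.5% of all tested miRNAs called lower. Without obstructed kidney 2, 3 of 5 fell, beside 30.2% of all tested. The groups did not overlap in that sum, as for miR-221 and, taken singly, 23% of all tested miRNAs. The sum gives most weight to the members with the most signal. On 8 arrays the tested members other than miR-192 and miR-194 were not called, and 1 of the 5 lay above 0. Without scaling the medians turned from -0.48 to 0.40 for the tubule list and from -0.55 to 0.33 for the endothelial list. The summed level of the endothelial miR-126-3p and miR-126-5p was 12.1 to 15.2 in contralateral kidneys and 10.5, 9.57, 11.4 and 13.2 in obstructed kidneys 1 to 4, so that kidney 4, with the most miR-222, was also the obstructed kidney with the most of these. Of the 2, miR-126-5p fell (limma adjusted p = 0.027, log2 difference -0.81 ± 0.18, SE, n = 4 each), beside the same 13.5% called lower, and 1 of 2 was called lower without obstructed kidney 2. The brighter miR-126-3p (mean log2 level 3.61, against -3.19 for miR-126-5p) gives the sum most of its weight. Its log2 difference was -0.30 ± 0.15 (SE, n = 4 each), it was not called on 8 arrays, and its groups overlapped. The smooth muscle miRNAs miR-143 and miR-145 summed to 0.938 in obstructed kidney 2 and 1.95 in obstructed kidney 4, with the other 6 kidneys in between, and none was called (1 tested, 0 at an unadjusted p under 0.05 by limma). The 3 erythroid miRNAs, miR-451 and miR-486 among them, summed to 44.6 in contralateral kidney 2 and 24.4 in obstructed kidney 2, and to 5.15 to 7.57 in the other 6 kidneys. The part of these cells in the values of miR-221 and miR-222 was not tested.

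**Figure D5:**
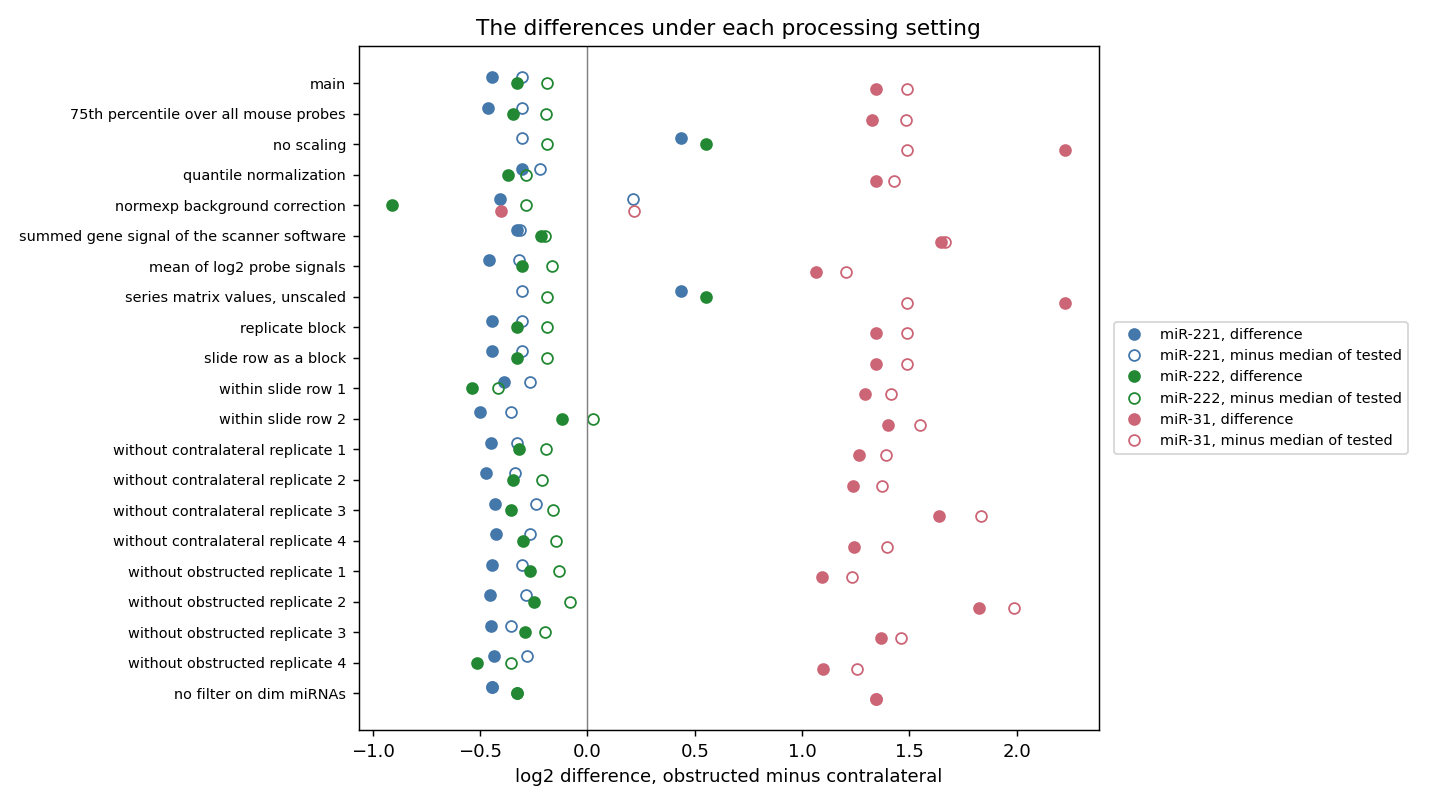
The log2 difference, obstructed minus contralateral (x axis, filled points), of miR-221, miR-222 and miR-31 under each processing setting (y axis), with the same minus the median of all tested miRNAs (open points). miR-31 is above 0 except with normexp (-0.40), and the filled points of miR-221 and miR-222 turn from below to above 0 without scaling (0.44 and 0.55).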

How the data were processed

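Total RNA of 4 contralateral and 4 obstructed kidneys was labelled with Cy3 and hybridised to 1-colour Agilent mouse miRNA arrays on 1 slide with 1 scan. The deposited values were spot intensity values from Agilent Feature Extraction (10.1.1 per the submitters' processing notes, 10.7.3.1 per the file headers), with local background subtracted and outlier spots marked by the authors' software, and no scaling between arrays. The series matrix held the same intensity values.

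Outlier and control spots were left out, the spots of a probe were averaged, and signals were expressed as multiples of the 75th percentile, per array, of the 371 probes above background throughout. Probes of a miRNA were summed, and log2 values were computed with a lower limit of 0.0213 (the floor). A fold change is therefore relative to bright miRNAs of the same array. A probe was above background if the software marked more than 50% of its spots so. The 222 tested miRNAs were fitted with limma 3.58.1 in R 4.3.3, with Benjamini-Hochberg adjustment, and the fit was tested on simulated data. Extraction of sequences and figures used Python 3.11.15, pandas 2.3.3 and matplotlib 3.10.9. The 8 arrays limit the precision. Each mouse had an obstructed and an open side, so by this design the kidneys of a group came from separate mice. The labels do not state this, nor whether same-numbered kidneys shared a mouse. The p-values measure only the spread between these samples.

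The 3 miRNAs and all lists were chosen with earlier results of these data known. The miRNAs named were the 3, other strands of their hairpins, the 3 tested miRNAs most correlated with each, up to 4 of the injury list and up to 2 of each marker list, called members first and then by signal. Alternatives covered the scaling, background correction, probe summary, filter, slide row, replicate number and each array left out.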

Additional observations from a re-analysis of the deposited data

Results flagged for a closer look

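In 2 of the 6 sets of 4 levels (3 miRNAs in 2 groups), 1 kidney stood far from the others by Dixon's ratio of gap to range, for which chance alone flags about 1 in 20 sets. The miR-31 level of contralateral kidney 3 had a ratio of 0.932, and the miR-222 level of obstructed kidney 4 a ratio of 0.847, both above Dixon's 95% critical value for 4 samples. Without contralateral kidney 3 the log2 difference of miR-31 was 1.64, and without obstructed kidney 4 that of miR-222 was -0.52.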

How the results depend on the processing

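The log2 difference of miR-221 turned from -0.44 to 0.44 without scaling and with the unscaled series matrix values, and moved to -0.31 with quantile normalization, -0.33 with the software's summed signal, -0.39 within slide row 1 and -0.50 within slide row 2. miR-222 moved from -0.33 to 0.55 without scaling and with the series matrix, and to -0.91 with normexp. miR-31 moved from 1.35 to 2.23 without scaling and with the series matrix, and to -0.40 with normexp. The difference between the changes of miR-221 and miR-222 moved from -0.12 to 0.50 with normexp. The cause of the normexp values was not tested. With each array left out in turn, the ranges were -0.47 to -0.43 for miR-221, -0.52 to -0.25 for miR-222, 1.09 to 1.82 for miR-31 and -0.20 to 0.079 for the difference of the first 2.

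Counts of calls (limma; 3 higher and 30 lower on 8 arrays) moved too. They were 0 and 0 with all mouse probes in the scaling (56 at an unadjusted p under 0.05), with normexp (54) and with the replicate block (67), 3 and 0 without scaling and with the series matrix (64), 1 and 2 with quantile normalization (59), 2 and 0 with the software's summed signal (67), and 0 and 17 with no filter on dim miRNAs (92, of 611 tested). With an array left out they were 0 to 46 higher and 0 to 67 lower. miR-221 was called lower in 5 of 19 fits, miR-31 higher in 1 and miR-222 in none. The labels do not say whether same-numbered kidneys came from the same mouse. Same-numbered kidneys did not deviate together throughout (correlations of -0.35, 0.22, 0.62 and 0.015 for numbers 1 to 4). They did not all correlate best with their own number. With 4 kidneys in a group these correlations cannot decide whether the kidneys were pairs. All fits but the replicate block took them as unpaired. miR-31* was given no difference under any alternative, since it was not tested. Signal near background limits what can be said of miR-31 and miR-31*.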
